A study of Mus musculus with 20 samples.

Results

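The cell cycle and DNA replication genes described here are 45 named genes, found by symbol in the 3 deposited count tables, which share 24394 symbols. They comprise 14 genes of DNA replication and S phase, 17 genes of mitosis, and 14 cyclins, cyclin-dependent kinases (CDKs) and CDK inhibitors. All 45 were present in each of the 3 tables.

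A dividing cell copies its DNA in S phase and parts the copies in mitosis. In G1, D-type cyclins with CDK4 and CDK6 phosphorylate the RB proteins, which frees E2F factors to transcribe replication genes such as the MCM helicase subunits. Genes of G2 and mitosis are transcribed later, through the MuvB complex with B-MYB and FOXM1, whose target promoters often hold CHR and CCAAT elements. The inhibitors p27 and p57, encoded by Cdkn1b and Cdkn1c, hold CDKs in check. Fibroadipogenic progenitors (FAPs), mesenchymal cells of the muscle interstitium that give rise to fibroblasts and fat cells, are mostly quiescent in resting muscle and divide after injury.

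FAPs were sorted from the hindlimbs of C57BL/6J mice, all male. KPC mice carried a pancreatic tumour from 2 M (mega) KPCY cells, a single mouse pancreatic cancer line, given in 50 µL into the pancreas, and control mice had sham surgery. There were 4 KPC and 3 control libraries at day 14, 3 KPC and 3 control libraries at day 21, and 3 KPC and 4 control libraries at day 26, each labelled as a biological replicate. The sort gated on CD31-, CD45-, α7-integrin-, PI-, SCA-1+ and Hoechst+ events, so that live nucleated cells were kept, and mouse age is not given in the labels. Whether each library is 1 mouse or a pool is not stated, so p-values measure the spread between these libraries. At days 14 and 21 no KPC library shared the leading number of its library code with a control library, so a batch carried by that code and the tumour cannot be told apart there. At day 26 KPC replicates 1 and 2 and control replicates 1 to 3 share the number 227. KPC replicate 3 has the number 226 and control replicate 4 has 235. What sets KPC replicate 3 apart below thus cannot be told apart from a batch carried by its code.

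Total counts ran from 12.9 to 26.4 M per library. Pdgfra, a defining FAP gene, ran from 1198 to 1669 CPM (counts per mega-count of library) over the libraries, and the summed level of 10 progenitor markers lay between 96302 and 124988 CPM in every library except KPC replicates 1 and 2 at day 26, which had 38536 and 66371 CPM. Those libraries and KPC replicate 3 of day 26 (108489 CPM) differ in these sums, and the main day 26 results below are given with and without replicate 3. CPM here use a single TMM scaling over all 20 libraries, fold changes are log2 values of edgeR's quasi-likelihood test, and a gene is called at a Benjamini-Hochberg adjusted p under 0.05 over all genes tested in that comparison. RNA came from bulk sorted cells, so fewer cycling cells and less RNA per cycling cell cannot be told apart. Where groups are said not to overlap, the share of all genes that separate likewise was not counted. Such statements describe the printed values alone.

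The promoters of a pair of replication genes and a pair of mitotic genes are shown, since replication and mitotic genes are described separately below. Mcm7 and Mcm6 encode helicase subunits, and were taken by rule as called members with small p in a KPC comparison. Mki67, which encodes the proliferation antigen Ki-67, and Top2a, which encodes topoisomerase II alpha, were added after their values were seen. Each is the RefSeq sequence of GRCm38.p6 from 250 bases before to 50 bases after the gene's start, written 5′ to 3′ on the gene's strand, with capitals where a searched motif matched on either strand.
Mcm7, promoter at chr5:138171834-138172133 on the minus strand: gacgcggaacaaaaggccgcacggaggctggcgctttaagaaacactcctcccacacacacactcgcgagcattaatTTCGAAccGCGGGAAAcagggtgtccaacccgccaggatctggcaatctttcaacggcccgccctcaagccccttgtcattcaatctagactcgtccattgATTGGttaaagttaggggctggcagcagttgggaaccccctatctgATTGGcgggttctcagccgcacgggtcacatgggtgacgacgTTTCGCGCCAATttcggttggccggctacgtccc
Mcm6, promoter at chr1:128359656-128359955 on the minus strand: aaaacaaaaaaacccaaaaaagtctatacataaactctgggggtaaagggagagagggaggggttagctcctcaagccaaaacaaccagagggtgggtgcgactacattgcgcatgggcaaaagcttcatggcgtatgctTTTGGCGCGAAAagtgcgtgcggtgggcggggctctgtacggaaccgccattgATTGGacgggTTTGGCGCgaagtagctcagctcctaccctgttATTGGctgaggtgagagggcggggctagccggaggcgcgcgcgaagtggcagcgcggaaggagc
Mki67, promoter at chr7:135716330-135716629 on the minus strand: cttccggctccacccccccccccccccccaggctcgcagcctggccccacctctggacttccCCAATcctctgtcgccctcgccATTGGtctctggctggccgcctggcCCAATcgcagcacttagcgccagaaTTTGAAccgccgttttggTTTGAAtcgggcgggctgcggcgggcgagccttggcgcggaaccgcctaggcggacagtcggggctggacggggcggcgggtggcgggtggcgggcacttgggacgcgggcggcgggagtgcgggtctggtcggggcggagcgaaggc
Top2a, promoter at chr11:99024140-99024439 on the minus strand: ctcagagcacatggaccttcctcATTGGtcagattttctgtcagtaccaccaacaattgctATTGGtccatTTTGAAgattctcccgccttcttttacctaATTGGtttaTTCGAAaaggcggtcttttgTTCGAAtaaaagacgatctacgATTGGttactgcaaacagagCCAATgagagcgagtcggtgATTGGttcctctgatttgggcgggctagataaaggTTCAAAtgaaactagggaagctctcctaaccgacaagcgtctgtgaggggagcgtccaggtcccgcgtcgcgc

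The motifs searched were the CHR letters TTTGAA and TTCGAA, the CCAAT box, and the E2F letters TTTCCCGC, TTTGGCGC and TTTCGCGC, each on both strands. A promoter was in the RefSeq table for 35 of the 45 members. E2F letters were in 6 of 13 promoters of S phase members (46.2%) and in 0 of 13 promoters of mitotic members, against 1.91% of all 27025 promoters in the table. CHR letters were in 10 of 13 mitotic promoters (76.9%) and 2 of 13 S phase promoters, against 19.5% of all promoters. CCAAT was in 11 of 13 mitotic and 8 of 13 S phase promoters, against 38.0% of all promoters. In Mcm7 a CCAAT match overlaps an E2F match, and in Mcm6 a pair of E2F matches on opposite strands overlap. None of these letters was in the windows of Ccnd3 and E2f1, the other genes the rule picked. The E2f1 window, chr2:154569377-154569676 on the minus strand, lies inside the gene as GENCODE vM21 gives it, which reaches 154569892. Absence of the letters there cannot be read as absence from the E2f1 promoter, and this window is among the 13 S phase windows counted. The Mcm7 window also lies inside its GENCODE gene, which reaches 138172422. A match is a run of letters and was not tested as a binding site.

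Per kilobase of exon, the inhibitor Cdkn1c had the highest level of the 45 genes, with a median of 63.6 RPKM over the 20 libraries. Medians were 24.6 RPKM for Cdk4, 14.8 RPKM for Cdkn1b, 12.4 RPKM for Ccnd3, 10.9 RPKM for Ccnd2 and 7.65 RPKM for Ccnd1. In the same class of cyclins, CDKs and inhibitors, Cdk6, Ccne1 and Ccne2 were low, at 0.0171, 0.0973 and 0.160 RPKM. Among replication genes Pcna, the sliding clamp of DNA polymerases, had 17.6 RPKM and Mcm4 had 7.72 RPKM. All mitotic genes had low medians. Cdc20, the activator of the anaphase-promoting complex, had the highest median of them at 1.00 RPKM, and Mki67 had 0.303 RPKM, Top2a 0.240 RPKM and Bub1, a spindle checkpoint kinase, 0.0121 RPKM. Some replication genes were as low, with 0.610 RPKM for Cdc6 and 0.0886 RPKM for Tk1. Bub1 had no count in 8 of the 20 libraries. Cdk1, the mitotic kinase, stood at a median of 0.148 RPKM. In every library the 14 cyclin, CDK and inhibitor genes summed to more CPM than the other members together, and the mitotic genes were measured at low depth.

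**Figure D1:**
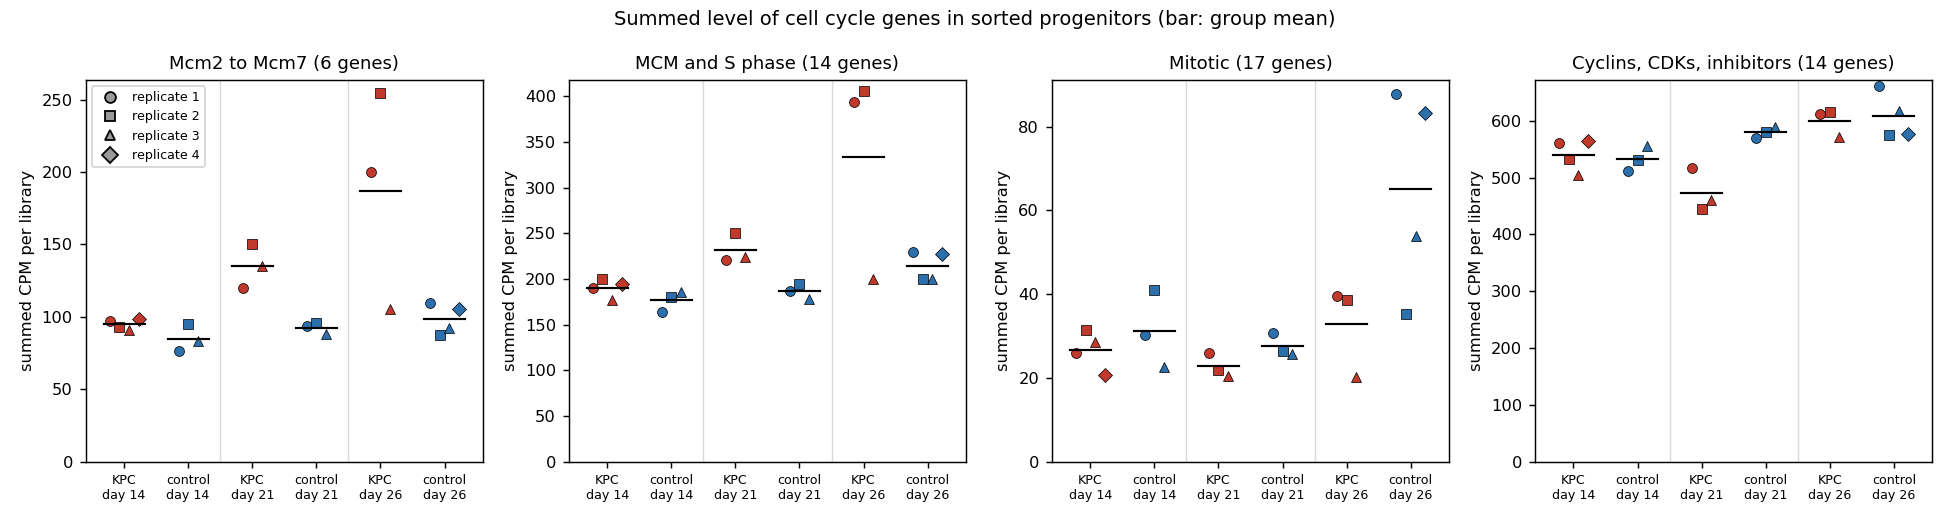
Summed CPM of Mcm2 to Mcm7, of all 14 MCM and S phase genes, of the 17 mitotic genes and of the 14 cyclin, CDK and inhibitor genes (y axes) in each library, by group and day (x axes), with bars at group means and symbols for replicate number. Replicates 1, 3 and 4 of the day 26 controls lie highest for the mitotic genes, at 87.8, 53.9 and 83.3 CPM, replicate 2 lies at 35.2 CPM, and KPC replicates 1 and 2 of day 26 lie highest for Mcm2 to Mcm7, at 200.2 and 255 CPM.

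At day 14 the test called none of the 40 members that passed the count filter, while 149 of 13344 genes (1.12%) were called. At an unadjusted p under 0.05 there were 2 members, against 14.3% of all genes. The members' median log2 fold change was -0.03, beside 0.01 over all genes tested. The 17 mitotic genes summed to 20.7 to 31.5 CPM in KPC libraries and 22.7 to 40.9 CPM in control libraries, with overlap. In DESeq2 and in limma-voom 1 member, Ccnd2, was called higher, against 1.96% and 2.95% of all genes.

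Ccnd2 encodes cyclin D2, a G1 partner of CDK4 and CDK6. It had 102, 121, 116 and 98.7 CPM in KPC libraries, against 84.8, 84.3 and 79.4 CPM in control libraries. The 2 groups did not overlap. The log2 fold change was 0.42 ± 0.11 (SE, n = 4 and 3) with an edgeR adjusted p of 0.081, which misses the threshold. It became 0.47 with an adjusted p of 0.042 without KPC replicate 4, and the adjusted p was 0.027 in DESeq2 and 0.023 in limma-voom. None of the remaining genes with the smallest p of each class was called. These were Mcm4, Tyms (thymidylate synthase) and Mcm6, with log2 fold changes of 0.24, 0.45 and 0.20, then Plk1 (a mitotic kinase), Kif11 (a spindle motor) and Cdc20, with -0.86, -0.82 and 0.82, and then Cdk2 and Ccnb2 (cyclin B2), with -0.34 and -0.94. Of 12 endothelial markers 2 were called higher and 0 lower at day 14, with a median log2 fold change of 1.65. Pecam1, of the gated CD31, averaged 55.7 CPM in KPC libraries and 16.4 CPM in control libraries, and was not called (adjusted p 0.10). Itga7, of the gated α7-integrin, was called higher (log2 fold change 1.71 ± 0.34, adjusted p 0.033). None of 10 progenitor markers was called, with a median of 0.02. The part of these markers in the results was not tested.

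At day 21 the helicase genes Mcm3, Mcm6 and Mcm7 and the inhibitor gene Cdkn1b were higher in KPC FAPs, and Ccnd3, Cdkn1c and E2f1 were lower. Of 40 members tested, 4 were called higher and 3 lower, or 17.5%, against 12.5% of all 13154 genes, so the count is near that of genes in general. By direction this was 10.0% of members against 6.38% of genes higher, and 7.5% of members against 6.11% of genes lower. The members' median log2 fold change was -0.02, beside 0.01 over all genes. By class, 3 of 14 S phase genes rose and 1 fell, 0 of 15 mitotic genes were called in either direction, and 1 of 11 cyclin, CDK and inhibitor genes rose and 2 fell.

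Among the S phase genes, Mcm7 had 26.4, 47.7 and 36.0 CPM in KPC libraries, against 17.8, 19.8 and 19.3 CPM in control libraries, a log2 fold change of 0.94 ± 0.19 (SE, n = 3 each) with an adjusted p of 0.0088. Mcm6 had 41.7, 43.8 and 42.3 CPM in KPC libraries, against 34.0, 28.2 and 24.9 CPM in control libraries, a log2 fold change of 0.54 ± 0.14 with an adjusted p of 0.025. In both genes every KPC library lay above every control library. Mcm3, another helicase subunit, had 14.1, 23.0 and 14.9 CPM in KPC libraries, against 10.2, 9.07 and 11.1 CPM in control libraries, a log2 fold change of 0.77 ± 0.22 with an adjusted p of 0.041. Mcm4 and Mcm5 were not called, with log2 fold changes of 0.23 and 0.50. Mcm2 had 2.59, 2.17 and 4.82 CPM in KPC libraries and 3.90, 7.27 and 5.42 CPM in control libraries, with a log2 fold change of -0.79 ± 0.39 that was not called (adjusted p 0.21). Summed over Mcm2 to Mcm7, the level was 120.0, 151 and 135 CPM in KPC libraries and 93.7, 96.1 and 87.8 CPM in control libraries. Pcna was not called, with 50.9, 43.6 and 40.8 CPM in KPC libraries and 36.5, 36.6 and 32.2 CPM in control libraries (adjusted p 0.10).

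E2f1, which encodes a transcription factor that drives entry into S phase, fell. It had 8.86, 9.40 and 6.08 CPM in KPC libraries, against 14.4, 17.9 and 15.9 CPM in control libraries, and its log2 fold change was -0.998 ± 0.22 with an adjusted p of 0.012. The groups did not overlap.

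In the third class, Ccnd3, the gene of cyclin D3, had 93.5, 66.0 and 74.5 CPM in KPC libraries, against 110.0, 128 and 128 CPM in control libraries, a log2 fold change of -0.65 ± 0.14 with an adjusted p of 0.0099. The inhibitor genes moved in opposite directions. Cdkn1b had 68.4, 101 and 86.4 CPM in KPC libraries, against 57.1, 63.6 and 60.8 CPM in control libraries, a log2 fold change of 0.49 ± 0.14 with an adjusted p of 0.039. Cdkn1c had 113, 85.7 and 93.8 CPM in KPC libraries, against 155, 123 and 139 CPM in control libraries, a log2 fold change of -0.52 ± 0.13 with an adjusted p of 0.022. Ccnd1, the gene of cyclin D1, had 28.3, 10.9 and 21.5 CPM in KPC libraries and 36.8, 37.0 and 36.5 CPM in control libraries, without overlap, and was not called (log2 fold change -0.86 ± 0.28, adjusted p 0.081).

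The mitotic genes were low in both groups at day 21, and they summed to 25.9, 21.9 and 20.5 CPM in KPC libraries and 30.6, 26.4 and 25.7 CPM in control libraries. Mki67 had 3.06, 2.30 and 1.61 CPM in KPC libraries and 4.06, 5.71 and 3.89 CPM in control libraries, an uncalled log2 fold change of -0.98 ± 0.38 (adjusted p 0.12). Top2a had 1.81, 1.73 and 1.51 CPM in KPC libraries and 2.17, 1.51 and 2.17 CPM in control libraries. In both genes and in the mitotic sum no KPC library lay above every control library.

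The day 21 calls rest on few libraries. Leaving out KPC replicate 1, 2 or 3 gave 10, 4 and 3 called members, and leaving out control replicate 1, 2 or 3 gave 3, 3 and 1. Over the same fits the count of all genes called ranged from 717 to 2644, so these member counts are not a result about the members. Mcm7 lost its call only without control replicate 1 (adjusted p 0.055) and Ccnd3 only without control replicate 3 (0.054), while E2f1 lost it without control replicate 2 (0.066) or 3 (0.053). Mcm6 and Cdkn1c were each not called in 4 of 6 such fits, and Mcm3 and Cdkn1b in 5 of 6. With all 20 libraries in a single fit, Mcm6 and Ccnd3 were the called members, against 3.08% of all genes. Macrophage and monocyte markers, 14 genes, all detected, summed to 106, 45.4 and 25.0 CPM in KPC libraries and 31.3, 21.8 and 17.4 CPM in control libraries, while 8 erythroid markers summed to 8.45, 11.1 and 7.11 CPM in KPC libraries and 0.552, 2.93 and 1.24 CPM in control libraries. The 10 progenitor markers summed to 96302 to 103964 CPM in KPC libraries and 116685 to 124988 CPM in control libraries, without overlap. Among them 1 was called higher and 5 lower, with a median log2 fold change of -0.51. Of 12 endothelial markers 7 were called higher and 1 lower in KPC libraries, with a median log2 fold change of 1.89. Pecam1, the gene of the gated antigen CD31, averaged 89.7 CPM in KPC libraries and 18.2 CPM in control libraries. The part of these markers in the results was not tested. Mcm7, Ccnd3 and 10 other members share exon bases with another gene. The largest overlaps are in Kif20a, with 1271 of 4338 exon bases, and Prc1, with 911 of 8225. How the counting used strand is not known here, so the source of those reads is uncertain. That limit holds for these genes in every comparison.

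**Figure D2:**
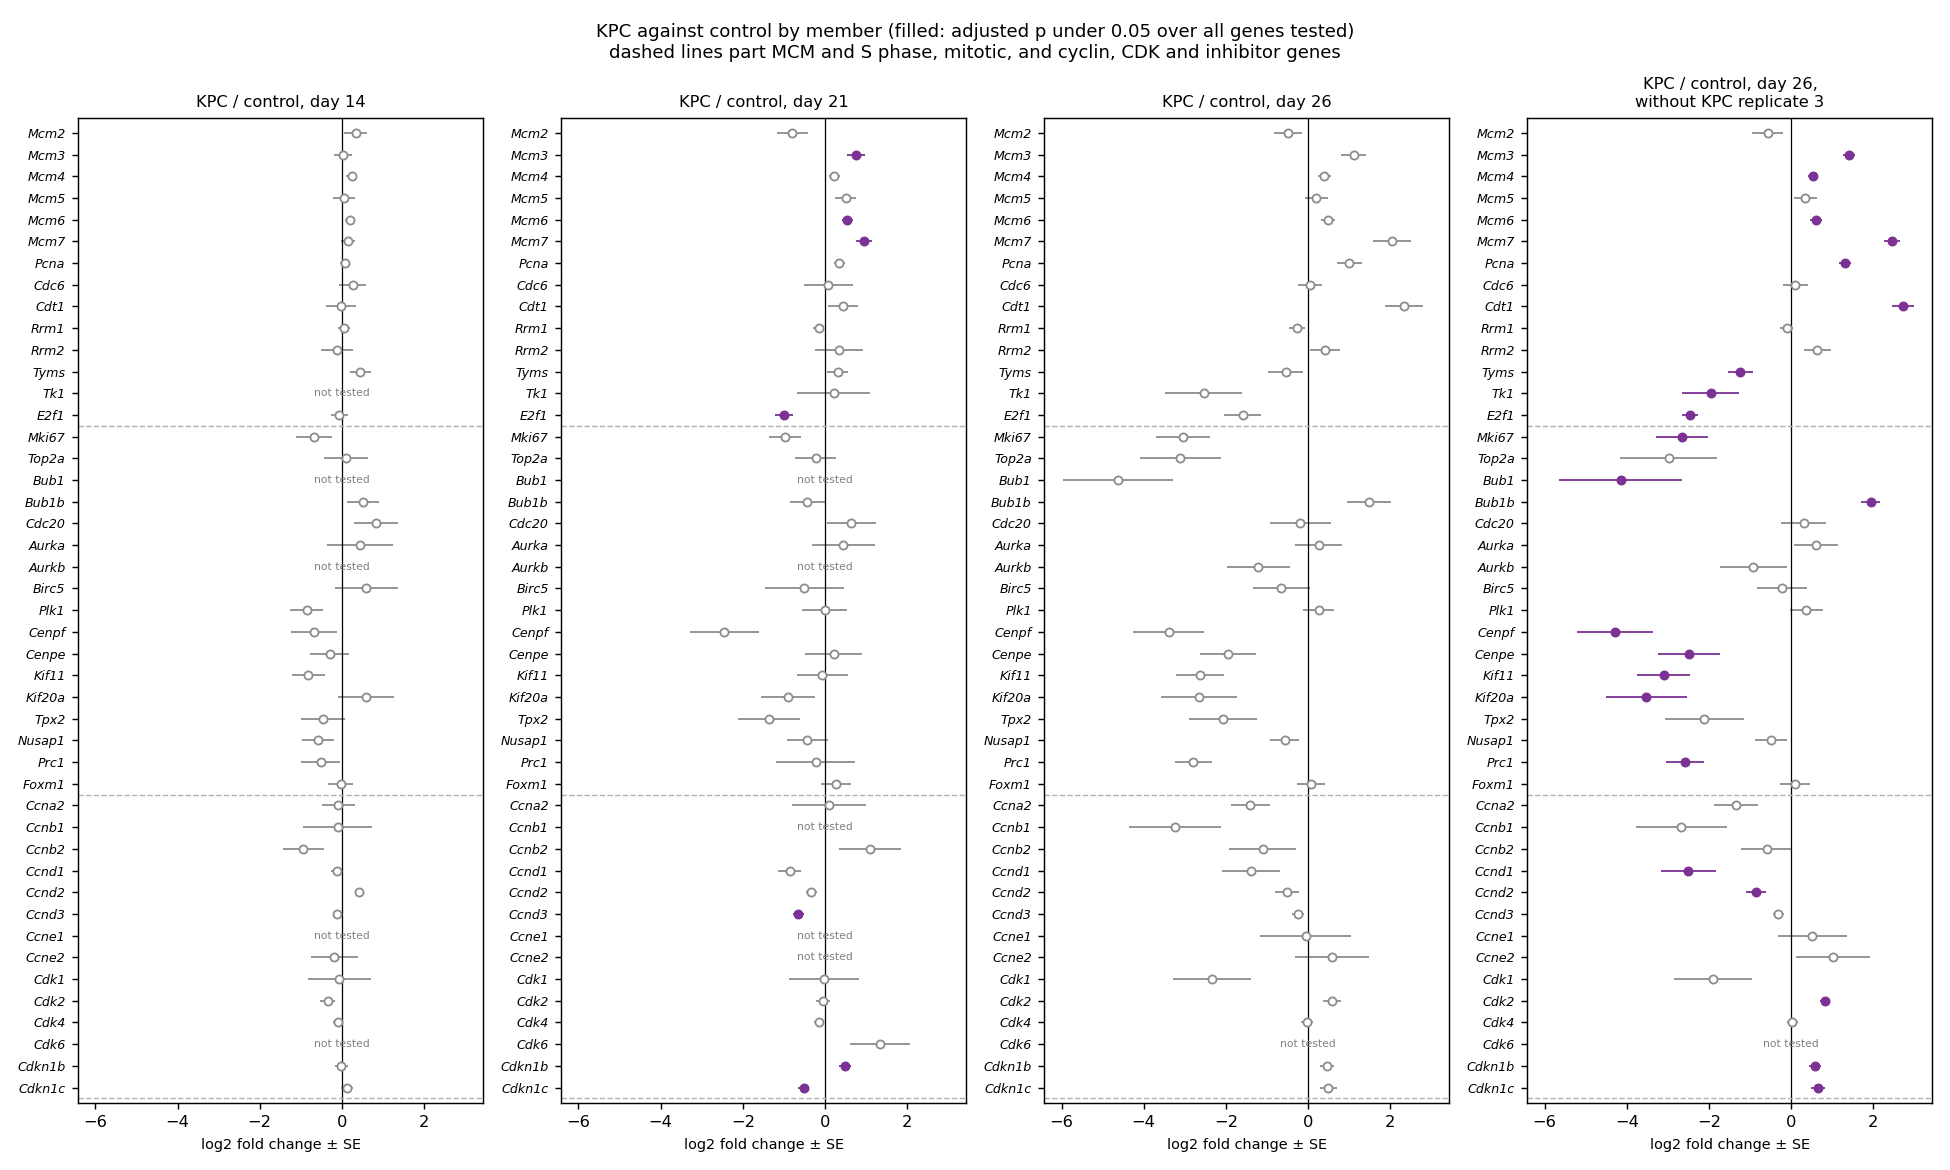
Log2 fold change of KPC over control with its SE (x axes) for each of the 45 members (y axes) at days 14, 21 and 26, and at day 26 without KPC replicate 3. Filled points were called over all genes tested, and they number 0, 7, 0 and 22.

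At day 26 the 3 KPC libraries did not act alike. Replicates 1 and 2 had high Mcm7, Pcna and Cdt1 and low E2f1 and Ccnd1, while replicate 3 lay between those libraries and the controls, or within the control range, for each of these genes. The mitotic genes Mki67, Top2a and Prc1 were low in all 3 KPC libraries beside the controls of that day. Over all 17 mitotic genes, control libraries summed to 35.2 to 87.8 CPM at day 26 and 25.7 to 30.6 CPM at day 21. KPC libraries summed to 20.1 to 39.6 CPM at day 26 and 20.5 to 25.9 CPM at day 21. The day 26 difference in mitotic genes thus holds a higher level in the controls of that day. With all libraries edgeR called 0 of 44 members and 0 of 13157 genes (0.0%), and 24 members (54.5%) had an unadjusted p under 0.05, against 34.3% of all genes. DESeq2 called 5 members higher and 13 lower, limma-voom 9 higher and 3 lower, and the single fit of all 20 libraries 10 higher and 12 lower. Over all genes the shares called higher and lower were 10.5% and 5.76% in DESeq2, 18.1% and 16.7% in limma-voom, and 19.0% and 15.5% in the single fit. The median log2 fold change was 0.30 for S phase genes, -1.95 for mitotic genes and -0.25 for cyclins, CDKs and inhibitors, beside 0.00 over all genes.

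Without KPC replicate 3, edgeR called 22 of 44 members (50.0%), 10 higher and 12 lower, and 6972 of 13517 genes (51.6%). The share of members is near that of all genes, so the count is not a result about cell cycle genes. Replicate 3 was set aside because its values differ from those of the other KPC libraries, so this fit is a description of 2 libraries against the controls. Its small p-values, also those given gene by gene below, follow in part from that choice. Leaving out KPC replicate 1 or KPC replicate 2 instead called 0 of 44 members in each fit. Keeping the libraries with code 227 alone, KPC replicates 1 and 2 and control replicates 1 to 3, gave 20 called members, 11 higher and 9 lower, against 47.1% of all genes.

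**Figure D3:**
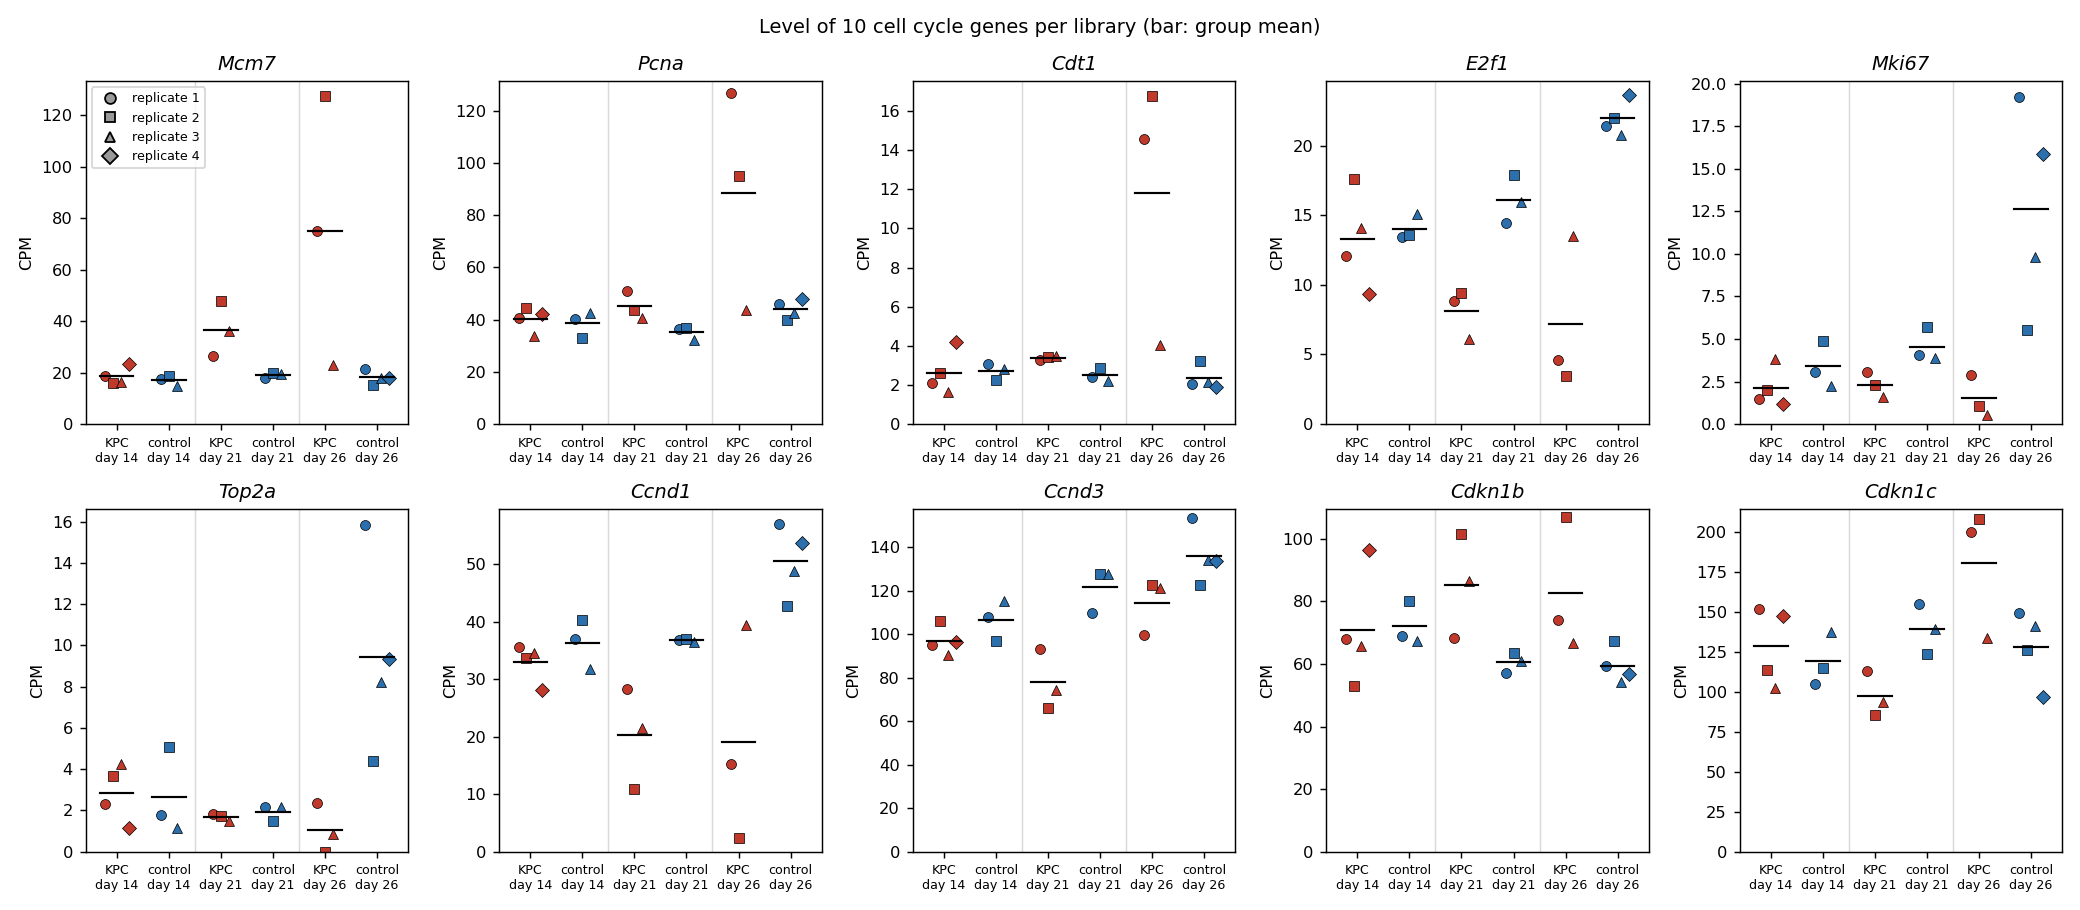
CPM (y axes) of 10 members in each library by group and day (x axes), with bars at group means and symbols for replicate number. KPC replicates 1 and 2 of day 26 stand apart from replicate 3 for Mcm7, Pcna, Cdt1, E2f1 and Ccnd1, and Mki67 and Top2a are highest in replicates 1, 3 and 4 of the day 26 controls.

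Among replication genes Mcm7 had 75.2, 128 and 22.7 CPM in KPC libraries, against 21.4, 15.3, 17.9 and 17.8 CPM in control libraries. Its log2 fold change was 2.04 ± 0.46 with an adjusted p of 0.062, and 2.46 ± 0.20 with an adjusted p of 4.3e-05 without replicate 3. Pcna had 127, 95.0 and 43.8 CPM in KPC libraries, against 46.0, 40.0, 42.5 and 48.0 CPM in control libraries. KPC replicate 3 lay within the control range for Pcna and above it for Mcm7. Cdt1, which loads the MCM helicase onto origins, had 14.6, 16.8 and 4.04 CPM in KPC libraries, against 2.06, 3.22, 2.15 and 1.88 CPM in control libraries, and its log2 fold change was 2.33 ± 0.47 (adjusted p 0.060), or 2.73 ± 0.26 (adjusted p 9.8e-05) without replicate 3. Mcm3 had 26.0, 31.2 and 11.7 CPM in KPC libraries and 11.3, 10.1, 9.28 and 11.8 CPM in control libraries.

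Not every replication gene was high in those KPC libraries. E2f1 had 4.58, 3.47 and 13.5 CPM in KPC libraries, against 21.4, 22.0, 20.8 and 23.7 CPM in control libraries, so that all KPC libraries lay below all controls. Its log2 fold change was -1.59 ± 0.45 (adjusted p 0.073), or -2.46 ± 0.19 (adjusted p 3.7e-05) without replicate 3. Tyms and Tk1, of thymidylate supply, were also called lower without replicate 3, with log2 fold changes of -1.23 and -1.96. Mcm2 had 6.87, 2.77 and 5.41 CPM in KPC libraries and 8.19, 6.50, 5.95 and 7.95 CPM in control libraries, and was not called in either fit.

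Most mitotic genes named here were low in replicate 3 as well. Mki67 had 2.90, 1.06 and 0.556 CPM in KPC libraries, against 19.2, 5.56, 9.79 and 15.9 CPM in control libraries, a log2 fold change of -3.05 ± 0.66 (adjusted p 0.061), or -2.66 ± 0.63 (adjusted p 0.010) without replicate 3. Top2a had 2.35, 0 and 0.859 CPM in KPC libraries, against 15.8, 4.41, 8.22 and 9.34 CPM in control libraries, and was called in neither fit (adjusted p 0.086 and 0.076). Prc1, which bundles the microtubules of the central spindle, had 0.894, 0.883 and 0.505 CPM in KPC libraries, against 6.98, 3.22, 4.11 and 6.89 CPM in control libraries, with an adjusted p of 0.059, or 0.0019 without replicate 3. In these 3 genes the groups did not overlap. In this comparison 34.3% of all genes had an unadjusted edgeR p under 0.05. At day 21 Mki67 had 1.61 to 3.06 CPM in KPC libraries and 3.89 to 5.71 CPM in control libraries. Mki67 and Prc1 are among the 3 mitotic genes with the smallest p at day 26, so their separation is not a separate result. Kif11 had 0.335, 0.236 and 0.606 CPM in KPC libraries and 4.13, 1.49, 1.84 and 2.50 CPM in control libraries.

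Bub1b, a spindle checkpoint gene, was highest in KPC replicates 1 and 2. It had 11.2, 14.9 and 2.32 CPM in KPC libraries, against 3.88, 2.73, 3.17 and 3.71 CPM in control libraries, and its log2 fold change was 1.48 ± 0.53 (adjusted p 0.10), or 1.93 ± 0.24 (adjusted p 0.00031) without replicate 3. It was the 1 mitotic gene called higher in that fit, in which 7 of 17 were called lower. As 51.6% of all genes were called in either direction in that fit, these counts are not a result about mitotic genes. Aurka, Plk1, Cdc20 and Foxm1 had positive log2 fold changes there, of 0.59, 0.37, 0.30 and 0.09, that were not called. Summed over the 17 mitotic genes, the level was 39.6, 38.6 and 20.1 CPM in KPC libraries and 87.8, 35.2, 53.9 and 83.3 CPM in control libraries, with overlap. Bub1 gave 1 count over the 3 KPC libraries and 51 counts over the 4 control libraries.

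Among G1 genes Ccnd1 had 15.3, 2.41 and 39.4 CPM in KPC libraries, against 56.9, 42.7, 48.8 and 53.8 CPM in control libraries. Ccnd2 had 79.8, 43.9 and 109 CPM in KPC libraries, against 122, 111, 116 and 96.7 CPM in control libraries, and KPC replicate 3 lay within the control range. Without replicate 3 both were called lower, with log2 fold changes of -2.51 ± 0.68 and -0.86 ± 0.24. Cdkn1b had 74.1, 107 and 66.7 CPM in KPC libraries, against 59.4, 67.4, 54.3 and 56.8 CPM in control libraries, and Cdkn1c had 199.7, 208 and 134 CPM in KPC libraries, against 149, 126, 141 and 96.9 CPM in control libraries. Both inhibitors were called higher without replicate 3, with log2 fold changes of 0.58 ± 0.15 and 0.65 ± 0.17. Cdk1, the mitotic kinase, had 0.894, 0.118 and 0.101 CPM in KPC libraries and 2.85, 0.397, 1.88 and 2.55 CPM in control libraries, with overlap. Ccna2 and Ccnb1, of cyclins A2 and B1, had uncalled log2 fold changes of -1.40 and -3.24.

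Markers of other cells differed between the day 26 KPC libraries as well. The 14 macrophage and monocyte markers summed to 487, 44.9 and 27.4 CPM in KPC libraries and 19.9 to 30.5 CPM in control libraries. The 12 endothelial markers summed to 1284, 430.2 and 659 CPM in KPC libraries and 604 to 776 CPM in control libraries. The 8 erythroid markers, of which 4 haemoglobin genes are listed at 0 in every group, summed to 40.2, 26.0 and 3.84 CPM in KPC libraries and 0.862 to 2.46 CPM in control libraries. Gene by gene, the endothelial markers had a median log2 fold change of 2.01 with none of 12 called, and of 2.50 with 5 called higher and 2 lower without replicate 3. In that fit 9 of 13 macrophage and monocyte markers were called higher, with a median of 3.45. Of 10 progenitor markers 8 were called lower and 0 higher in it, with a median of -1.87. Ly6a, of the gated SCA-1, was called lower (-1.11 ± 0.19, adjusted p 0.0017), and Pdgfra was not called (-0.06). Itga7 and Pecam1 were called higher, at 1.96 and 3.74. With all libraries 0 of 10 progenitor markers were called, with a median of -1.08. The part of these markers and cells in the results was not tested.

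Between the controls of different days, the mitotic sum was highest in 3 of the 4 day 26 libraries. Over the 17 mitotic genes, control libraries summed to 22.7 to 40.9 CPM at day 14, 25.7 to 30.6 CPM at day 21, and 87.8, 35.2, 53.9 and 83.3 CPM in replicates 1 to 4 at day 26. Replicate 2 of day 26 lay within the day 14 range. The days were sequenced under different library codes and deposited in different tables, so that day and batch cannot be told apart in these comparisons.

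Day 26 controls against day 14 controls gave 12 of 43 members higher and none lower, or 27.9% of members, against 9.7% of all 13391 genes higher and 12.6% lower. The median log2 fold change was 0.49 over the members and 1.28 over the mitotic genes, beside 0.00 over all genes. Among mitotic genes 6 of 17 rose. Mki67 had 19.2, 5.56, 9.79 and 15.9 CPM at day 26, against 3.03, 4.88 and 2.24 CPM at day 14, a log2 fold change of 1.92 ± 0.40 (SE, n = 4 and 3) with an adjusted p of 0.0056. Top2a had 15.8, 4.41, 8.22 and 9.34 CPM at day 26, against 1.80, 5.08 and 1.15 CPM at day 14, a log2 fold change of 1.86 ± 0.51 with an adjusted p of 0.023. For Mki67 the days did not overlap, and for Top2a the lowest day 26 control lay below the highest day 14 control. Kif20a, a motor of cytokinesis, had a log2 fold change of 1.88 ± 0.50 (adjusted p 0.013), Cdc20 had 1.70 ± 0.45 (0.013), and Prc1 and Cenpf had 1.13 and 1.30.

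Of the S phase genes 3 of 14 rose between these controls. E2f1 had 21.4, 22.0, 20.8 and 23.7 CPM at day 26, against 13.4, 13.6 and 15.1 CPM at day 14, a log2 fold change of 0.65 ± 0.12 with an adjusted p of 0.0016. Mcm2 had 8.19, 6.50, 5.95 and 7.95 CPM at day 26, against 3.84, 4.61 and 2.82 CPM at day 14, with a log2 fold change of 0.94 ± 0.25 (adjusted p 0.013). Tk1 had 126 counts over the 4 day 26 libraries and 21 over the 3 day 14 libraries, with a log2 fold change of 2.06 ± 0.69 (adjusted p 0.041). Mcm7 was not called, and had 21.4, 15.3, 17.9 and 17.8 CPM at day 26 and 17.5, 18.7 and 14.8 CPM at day 14, with overlap.

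All 3 D-type cyclins were called higher in day 26 than in day 14 controls. Ccnd1 had 56.9, 42.7, 48.8 and 53.8 CPM at day 26, against 37.0, 40.2 and 31.8 CPM at day 14, a log2 fold change of 0.49 ± 0.11 (adjusted p 0.0058). Ccnd2 had a log2 fold change of 0.44 ± 0.10 (0.0046) and Ccnd3 of 0.36 ± 0.10 (0.019).

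Leaving out 1 control library at a time gave 10, 11 and 6 called members without day 14 replicate 1, 2 or 3, and 8, 17, 9 and 10 without day 26 replicate 1, 2, 3 or 4. Over the same fits the count of all genes called ranged from 1902 to 2948. Mki67, E2f1, Ccnd1 and Ccnd2 were called in all 7 such fits. Kif20a, Cdc20 and Mcm2 lost their calls only without day 14 replicate 3, with adjusted p of 0.060, 0.057 and 0.073, and Top2a lost its call without day 14 replicate 1 or 3. Ccnd3 lost its call without day 14 replicate 2 or day 26 replicate 1. Cenpf and Prc1 were not called in 5 of the 7 fits, and Tk1 in 6. In the single fit of all 20 libraries, which takes its spread from KPC libraries too, Mki67 was the 1 member called, against 6.95% of all genes.

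Day 26 controls against day 21 controls gave 1 member called, Prc1, of 43 (2.33%), against 0.478% of 13391 genes. Prc1 had 6.98, 3.22, 4.11 and 6.89 CPM at day 26, against 1.81, 1.04 and 0.642 CPM at day 21, a log2 fold change of 2.16 ± 0.40 with an adjusted p of 0.021. It lost the call without any of the 3 day 21 libraries or without day 26 replicate 1, with adjusted p up to 0.11. At an unadjusted p under 0.05, 21 members (48.8%) were all higher at day 26, against 12.1% of all genes in either direction. The 17 mitotic genes all had positive log2 fold changes, with a median of 1.29.

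Day 21 controls against day 14 controls gave 1 member called of 43 (2.33%), against 23.4% of 13391 genes. This was Ccnd2, with 102, 115 and 115 CPM at day 21, against 84.8, 84.3 and 79.4 CPM at day 14, a log2 fold change of 0.43 ± 0.10 with an adjusted p of 0.0064. It was called in all 6 fits that leave out a library. The mitotic genes had a median log2 fold change of -0.18, with 0 of 17 called.

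**Figure D4:**
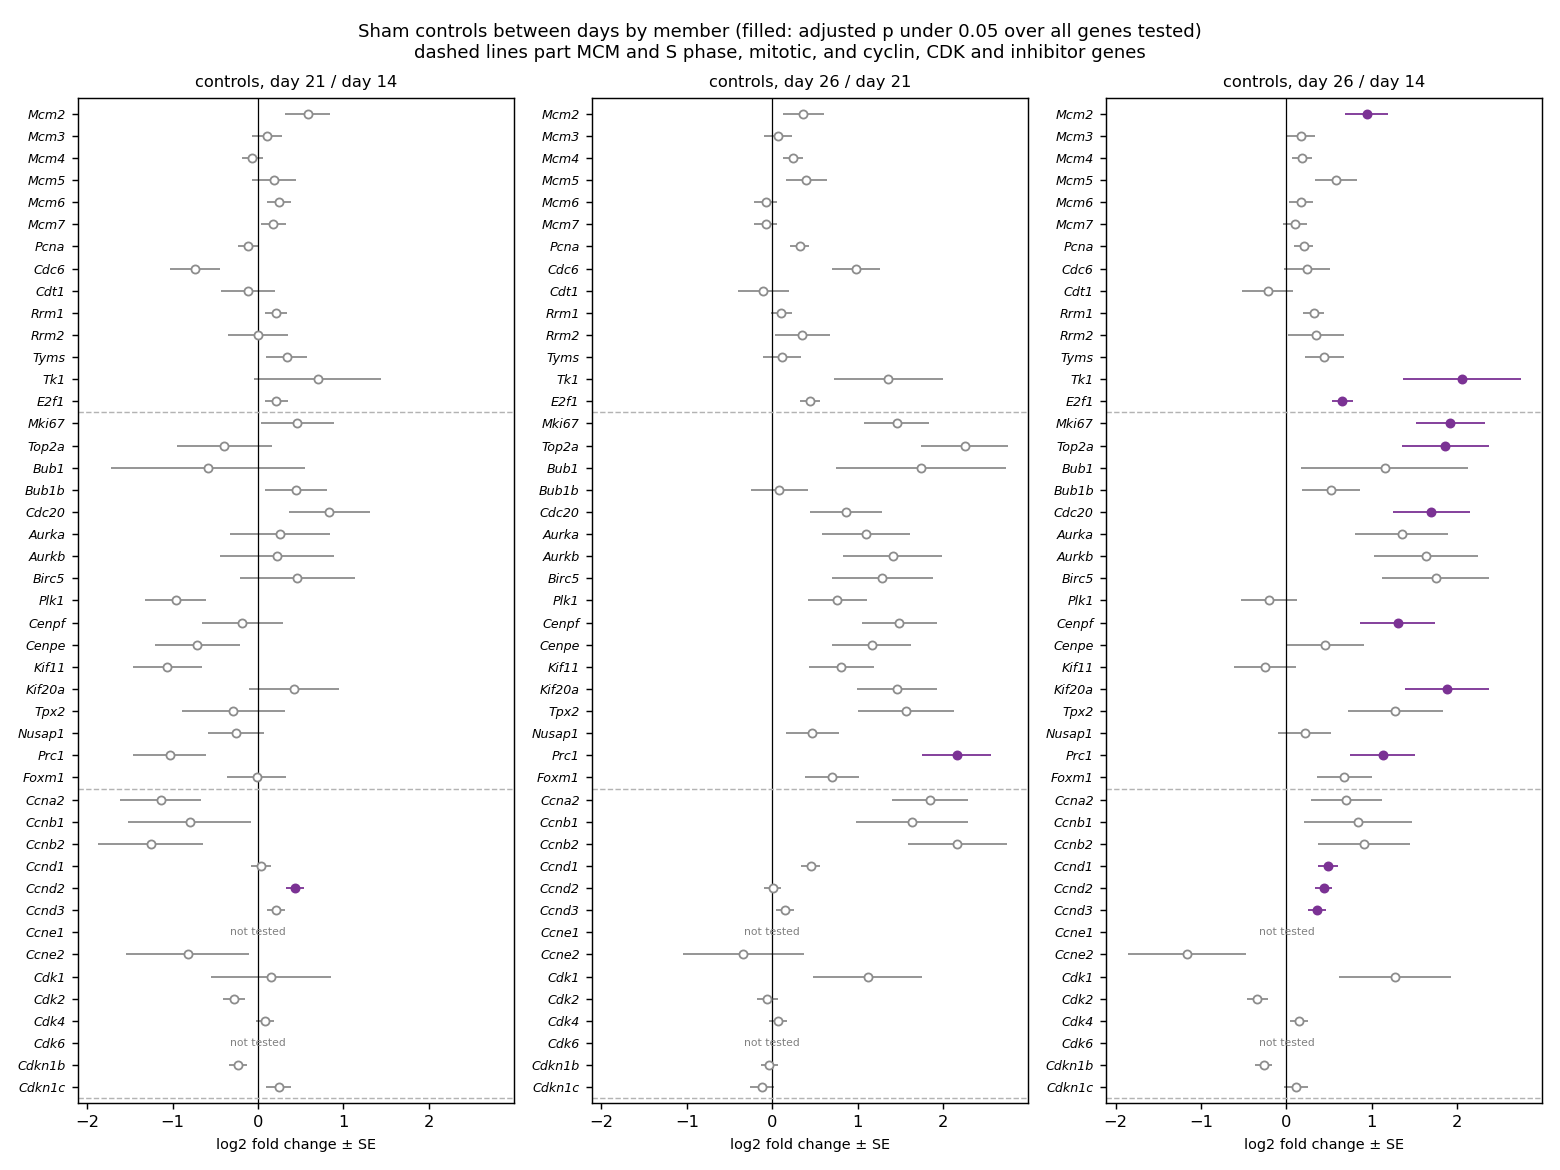
Log2 fold change with its SE (x axes) between sham controls for each of the 45 members (y axes), for day 21 over day 14, day 26 over day 21, and day 26 over day 14. Filled points were called over all genes tested, and they number 1, 1 and 12. All 17 mitotic genes lie right of 0 in day 26 over day 21.

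The KPC effect was then compared between days, as a difference of log2 fold changes in a single fit, with each day set against its own controls. Between day 26 and day 14 the effect differed for 8 of 45 members (17.8%), against 14.3% of 14141 genes, so the count is near that of genes in general. It was greater at day 26 for Cdt1 by 2.38 ± 0.55 (adjusted p 0.013), Mcm7 by 1.93 ± 0.50 (0.023), Pcna by 0.94 ± 0.31 (0.049) and Cdk2 by 0.94 ± 0.29 (0.039). It was lower at day 26 for Top2a by -3.22 ± 1.04 (0.045), Mki67 by -2.37 ± 0.74 (0.039), E2f1 by -1.52 ± 0.45 (0.034) and Ccnd2 by -0.92 ± 0.28 (0.035). Mki67, Top2a, E2f1 and Ccnd2 were called higher in day 26 than in day 14 controls, as given above, so for these genes the difference holds a change in the controls.

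Without KPC replicate 2 of day 26 none of these 8 was called, and without KPC replicate 3 of day 26 there were 15 members called, against 40.4% of genes. Cdt1 was called in each of the other 13 fits that leave out 1 library, and Mcm7 also lost its call without control replicate 1 of day 14. The other 6 were not called in 9 to 13 of the 14 fits. Between day 21 and day 14, 0 of 45 members differed, against 0.644% of genes, with 4 at an unadjusted p under 0.05, and DESeq2 called 0 and limma-voom 3, against 2.14% and 13.6% of genes. Between day 26 and day 21, 0 members and 0 genes (0.0%) differed, with 11 members at an unadjusted p under 0.05, and DESeq2 called 0 members and limma-voom 5, against 0.308% and 7.59% of genes. Without KPC replicate 3 of day 26 that last comparison called 10 members, 6 higher and 4 lower, against 21.9% of genes.

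Another 148 cell cycle genes, in 5 lists of replication machinery, mitosis and spindle, CDK regulators, the RB, E2F and MuvB factors, and chromatin replication, were counted beside the members. At day 14 none of 123 tested was called, against 1.12% of all genes. At day 21, 8 of 113 were called higher and 1 lower, or 7.96%, below the 12.5% of all genes, so the count is not a result about these lists. The CDK regulator list held 5 of these. The antiproliferative gene Btg2 averaged 589 ± 81.1 CPM in KPC libraries and 199.7 ± 38.3 CPM in control libraries (SD, n = 3 each), a log2 fold change of 1.55 ± 0.15. Btg1 had a log2 fold change of 1.46 ± 0.13, and Cdkn1a, the gene of the inhibitor p21, averaged 306 ± 27.1 CPM in KPC libraries and 136 ± 24.4 CPM in control libraries, with 1.16 ± 0.14. Of replication machinery 2 of 43 genes rose, Timeless at 1.52 ± 0.23 and Atad2 at 0.85 ± 0.23. Hmgb2 and Hmgb1, of the chromatin list, rose by 1.27 and 0.41 on the log2 scale, and none of 26 mitosis and spindle genes was called.

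At day 26, 0 of 134 list genes were called with all libraries, and 29 rose and 24 fell of 138 without KPC replicate 3, when 51.6% of all genes were called. In that fit the mitosis and spindle list had 3 genes higher and 11 lower of 47, with a median log2 fold change of -1.64. The RB, E2F and MuvB list had 7 higher and 2 lower of 18, with Rbl2, the gene of p130, at 1.23. Cdkn1a averaged 491 ± 255 CPM in KPC libraries (SD, n = 3) and 164 ± 23.4 CPM in control libraries (SD, n = 4).

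Between controls of day 26 and day 14, 9 of 48 mitosis and spindle genes rose and 1, Smc4, fell, with a median log2 fold change of 1.04. These included Racgap1 at 1.26, a regulator of cytokinesis, and Spag5 at 2.11. In the chromatin list 5 of 10 rose. Among them was Stmn1, at 2.24, which was placed in that list although its protein destabilises microtubules. In the replication list 4 of 44 rose and 2 fell, and the origin recognition gene Orc4 fell by 1.27 on the log2 scale. Over the 5 lists 19 rose (13.6%) and 10 fell (7.14%) of 140, against 9.7% and 12.6% of all genes. Day 26 against day 21 controls gave 2 higher and 1 lower of 140 (2.14%), against 0.478% of all genes. Day 21 against day 14 controls gave 1 higher and 13 lower of 140 (10.0%), against 23.4% of all genes.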

How the data were processed

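Messenger RNA of sorted FAPs was sequenced in 20 libraries per the labels as stranded read pairs of 59 bases, with RNA integrity numbers of 7 or more. The authors deposited unnormalized read counts by symbol in 3 tables of 24419, 24419 and 24421 symbols. Build mm10, STAR, Bowtie, bcl2fastq 2.20, R 4.2.1 and DESeq2 1.36.0 are named in the submitters' processing notes. What counted the reads, with which strand setting and annotation, is not given in the sources used here. All columns were matched through the library codes in the labels.

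Each comparison was fitted on all genes with edgeR 4.0.16 in R 4.3.3 (TMM, filterByExpr at its minimum count of 10 and total of 15, robust quasi-likelihood fit, 2-sided). Controls were compared in a fit of the 3 control groups, and effects between days in a fit of all 6. SE is the absolute log2 fold change over the square root of F. Alternatives were DESeq2 1.42.0, limma-voom (limma 3.58.1), other scalings, no filter, a replicate block, all 20 libraries and leaving out each library. RPKM used GENCODE vM21 exon lengths on the same build.

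The members and lists were chosen with earlier results of these data known. Named members were 10 fixed genes, up to 4 called genes per class and direction, and the 3 smallest p per class where none was called; other members are given after their values were seen. Tests were checked on simulated counts. Replicate numbers did not pair libraries.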

Additional observations from a re-analysis of the deposited data

Results flagged for a closer look

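The 30 named members were tested in the groups with 4 libraries, KPC at day 14 and controls at day 26. Of these 60 sets of values, 1 held a library far from the others. Groups of 3 libraries, KPC at day 26 among them, were not tested in this way. Mcm4 had 30.8 CPM in control replicate 1 of day 26, and its gap to the nearest of the other controls was 0.845 of the range, above Dixon's 95% critical value. About 1 in 20 such sets is expected by chance.

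The KPC effect differed between day 26 and day 14 for 8 of 45 members (17.8%), by a test of the difference of log2 fold changes. Of all genes 14.3% differed, so the count is near that of genes in general. The differences were 2.38 for Cdt1, 1.93 for Mcm7, 0.94 for Pcna, 0.94 for Cdk2, -0.92 for Ccnd2, -1.52 for E2f1, -2.37 for Mki67 and -3.22 for Top2a. None of the 8 was called without KPC replicate 2 of day 26.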

How the results depend on the processing

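No fold change of a named member that was called in either fit changed sign under an alternative. Of 4154 member values under alternatives, 3842 stayed on the same side of the threshold, 139 of them with a change of sign while uncalled, 160 gained and 152 lost the call. The cause of the changes in counts below was not tested. For KPC against control at day 14, where 149 genes were called, DESeq2 gave 563 genes and 1 member, limma-voom 660 and 1, no filter 278 genes, a replicate block 361 genes and all 20 libraries 2 genes. At day 21 the fit of all 20 libraries gave 436 genes and 2 members. At day 26 DESeq2 gave 2784 genes and 18 members, limma-voom 4578 and 12, all 20 libraries 4889 and 22, and code 227 alone 6287 and 20. For day 21 against day 14 controls the main fit called 1 member and 3138 genes (23.4%). Members called there were 3 with DESeq2, 2 with limma-voom, 5 with library size alone and 2 with a replicate block. All 20 libraries gave 0 members and 1204 genes. For day 26 against day 21 controls, genes and members called were 262 and 9 with DESeq2 and 5 and 0 with all 20 libraries; limma-voom gave 182 genes, a replicate block 111 genes and no filter 2 members. For day 26 against day 14 controls the fit of all 20 libraries gave 983 genes and 1 member. For differences of the KPC effect, day 21 minus day 14 gave 388 genes with DESeq2, and 1927 genes and 3 members with limma-voom. Day 26 minus day 21 gave 56 genes with DESeq2, 1074 genes and 5 members with limma-voom, 1 gene with library size alone and 5 genes with a replicate block. Day 26 minus day 14 gave 4296 genes with limma-voom, and 829 genes and 5 members with a replicate block.

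Leaving out 1 library at a time, genes called ranged from 40 to 255 for KPC at day 14, 717 to 2644 at day 21 and 0 to 6972 at day 26, and members called from 0 to 1, 1 to 10 and 0 to 22. Between controls the ranges were 2054 to 3053 genes and 1 to 3 members (day 21 against 14), 5 to 129 genes and 0 to 4 members (day 26 against 21), and 1902 to 2948 genes and 6 to 17 members (day 26 against 14). For effects they were 24 to 162 genes and 0 members (day 21 minus 14), 0 to 3201 and 0 to 10 (day 26 minus 21), and 466 to 5900 and 0 to 15 (day 26 minus 14). Libraries with the same replicate number did not deviate together, with correlations from -0.115 to 0.147, so the block tests only a shared number. The low counts of mitotic genes limit what could be called for them.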
